A study of Mus musculus with 6 samples.

Results

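Messenger RNA of 10 genes of cytokine signalling was described in microglia, the resident macrophages of the brain, with and without the transcription factor Lyl1. They were taken by gene symbol from the deposited count table of 48587 genes. They are the cytokine genes Tnf, Il1a, Il1b and Il18, the receptor genes Tnfrsf1a, Tnfrsf1b, Il6ra and Il10ra, the feedback inhibitor gene Socs3 and the adhesion molecule gene Icam1. All 10 were found, and 9 passed the filter on low counts, the exception being Il1b. They were chosen by their role and with their CPM in these 6 libraries and their knockout to wild-type differences known, so those differences are given as a description and without a test.

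All mice were C57BL/6 and 42 days old (P42), 3 samples being wild type and 3 Lyl1 knockout (Mut in the sample titles), and polyadenylated RNA of microglia sorted by flow cytometry was sequenced. The sources used here do not give the allele, its extent across cell types, the sorting gate or any pooling of animals. Separate animals are not stated, so the spread between samples may be technical in part. The libraries held 12753945 to 27378614 counts, from about 1000 cells each by the protocol. Of the genes tested, 39.5% had 3 reads or fewer in at least 1 library, and the common biological coefficient of variation was 1.27. Lyl1 itself lay between 40.0 and 60.2 CPM (reads of a gene scaled to libraries of equal size) in wild type and between 9.03 and 14.3 CPM in knockout, so its reads were fewer but not absent. Summed over 10 microglia markers, P2ry12 and Tmem119 among them, the libraries lay between 57699 and 65733 CPM. Neutrophil markers summed to 3.26 CPM or less and T and NK cell markers to 0.0696 CPM or less in every library. Astrocyte markers summed to 170 to 410 CPM, oligodendrocyte markers to 47.4 to 379 CPM and B cell markers to 55.9 to 132 CPM, with Gfap at 0 reads throughout. Only 1 of 7 astrocyte and 1 of 5 B cell markers averaged 1 CPM or more, against 4 of 6 oligodendrocyte markers.

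Microglia sense injury and infection and answer with cytokines. TNF, made from Tnf, acts through the receptors TNFR1 (Tnfrsf1a), which most cells carry and which can signal to NF-kB or to cell death, and TNFR2 (Tnfrsf1b), which is more restricted to immune and endothelial cells. Interleukin-1 alpha and interleukin-1 beta bind the same receptor, and the beta form and interleukin-18 are cut to their active forms by caspase-1 in the inflammasome. IL-6 and IL-10 signal through STAT3, which switches on Socs3, and SOCS3 in turn brakes the IL-6 receptor complex. Icam1 is a classical NF-kB and STAT target on inflamed cells and is bound by beta-2 integrins.

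No gene of the whole comparison passed the adjusted threshold. edgeR's quasi-likelihood test with Benjamini-Hochberg adjustment called 0 of 10394 tested genes (0% called), these 9 among them, while 121 genes were higher and 174 lower at an unadjusted p under 0.05. The balance turned to 133 higher and 99 lower with upper-quartile scaling, 139 and 124 with library size only, 476 and 187 with limma-voom, 194 and 158 with depth as a covariate and 154 and 57 with the number of genes detected as a covariate. The numbers were 860 and 298 without wild-type sample 3, and the lower genes numbered 95 and 93 without knockout samples 1 and 2. DESeq2 on the same genes called 34 higher and 18 lower, none of them one of these 9. Tnf was lower in all knockout samples than in all wild-type samples, and Socs3 and Icam1 were higher. Over all tested genes, the groups were apart in this way for 5.97% toward higher and 5.19% toward lower values in knockout, against 2 and 1 of these 9 genes. The values that separate these 3 genes are ones that were known when the list was made. In such sorted populations, fewer cells that make an mRNA and less of it in each cell cannot be told apart.

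**Figure D1:**
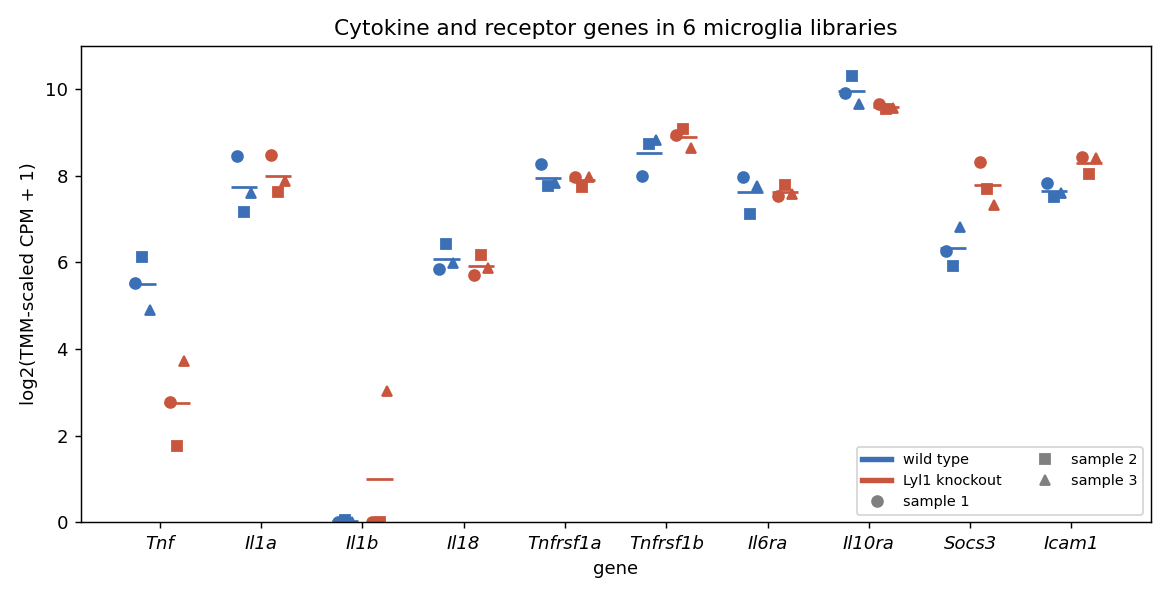
Levels of the 10 genes in each of 6 libraries, as log2(CPM + 1) with scaling by the trimmed mean of M values (TMM); each symbol is 1 sample and each short line the mean of 3. Tnf sits lower and Socs3 and Icam1 sit higher in every knockout sample, Il1b has reads almost only in knockout sample 3, and the remaining genes overlap between genotypes.

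Of the 3 cytokine genes that passed the filter, Tnf showed the widest difference. It had 509, 1727 and 602 reads in wild-type samples 1, 2 and 3 against 134, 47 and 352 reads in knockout samples 1, 2 and 3, and all values below keep this order. Scaled by TMM to CPM, that was 44.9, 68.6 and 28.7 CPM against 5.90, 2.39 and 12.2 CPM. The highest knockout sample thus stayed below the lowest wild-type sample, although the samples spread 2.39-fold within wild type and 5.13-fold within knockout. The means were 47.4 ± 20.1 and 6.84 ± 4.99 CPM (SD, n = 3 each), which is 6.93-fold lower in knockout. The fitted difference was -2.79 ± 1.22 on the log2 scale (SE). It stayed negative in all 19 alternative settings, between -4.20, with Xist as a covariate, and -2.37.

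Tnf (ENSMUSG00000024401.14) lies on the minus strand of chromosome 17 at 35199381 to 35202007 of GRCm38, and no exon of it overlaps another annotated gene. The 250 bases before its start are shown because Tnf is the cytokine whose genotypes lay apart, with those of Il1a and Il1b beside them because these paralogs of 1 chromosome differed widely in level. Positions are chr17:35202008-35202257, chr2:129309973-129310222 and chr2:129371140-129371389, all on the minus strand, from RefSeq on GRCm38.p6. Capitals mark a TATA box (TATAAA, read on the gene's strand) and an AP-1 motif (TGANTCA, both strands), and no 2 marked motifs overlap.
Tnf: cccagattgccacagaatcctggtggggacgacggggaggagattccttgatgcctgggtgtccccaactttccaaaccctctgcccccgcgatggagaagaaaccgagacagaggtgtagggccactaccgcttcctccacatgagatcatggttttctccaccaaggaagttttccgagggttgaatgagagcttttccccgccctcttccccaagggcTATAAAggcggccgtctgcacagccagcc
Il1a: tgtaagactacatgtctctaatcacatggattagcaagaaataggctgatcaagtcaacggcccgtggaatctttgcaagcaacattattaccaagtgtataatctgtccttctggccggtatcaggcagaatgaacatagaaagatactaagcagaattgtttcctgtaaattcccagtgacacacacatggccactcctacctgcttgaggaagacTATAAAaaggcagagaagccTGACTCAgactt
Il1b: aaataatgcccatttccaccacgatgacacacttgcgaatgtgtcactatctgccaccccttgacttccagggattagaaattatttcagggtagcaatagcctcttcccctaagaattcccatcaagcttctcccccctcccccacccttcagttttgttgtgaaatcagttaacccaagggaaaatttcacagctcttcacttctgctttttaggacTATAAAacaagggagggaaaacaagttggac
All 3 windows hold TATAAA, 24 to 32 bases before the start, while 7.59% of 32851 annotated promoter windows of this length do. None of the other 6 members with a window has it. Il1a alone also holds TGACTCA, 6 to 12 bases before the start, a motif present in 6.75% of windows. A match describes the letters and is not evidence of binding, and the motifs were chosen after the windows had been read.

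Il1a and Il1b, neighbours on chromosome 2 with 54597 bases between them, differed in that the first had 3591 reads or more in every library, and the second 206 reads in knockout sample 3 and 1 or 0 in each of the others. Il1a, which encodes interleukin-1 alpha, was at 349, 143 and 193 CPM in the wild-type libraries and 357, 196 and 234 CPM in the knockout libraries. Its genotypes overlapped almost fully, and sample 1 was the highest of both. On the log2 scale the fit gave 0.20 ± 0.42 (SE), knockout over wild type, and its sign turned in 3 of 19 alternatives. An antisense gene model, Gm14023, shares 222 bases of exon with Il1a, and the kit does not mark strand.

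Il1b had 0, 1 and 0 reads across the wild-type libraries against 0, 0 and 206 across the knockout libraries. Reads for interleukin-1 beta thus came from knockout sample 3, at 7.16 CPM, and the other 5 libraries held 1 read in all. With 0 reads counted, as many as 3 could be missed. That equals 0.132 to 0.264 CPM in wild-type samples 1 and 3 and knockout samples 1 and 2, for counting error only. In knockout sample 3 monocyte markers summed to 4.59 CPM, neutrophil markers to 0.487 CPM and markers of border-associated macrophages to 10.3 CPM. The highest sums elsewhere were 8.63 CPM for monocytes in knockout sample 1, 3.26 CPM for neutrophils in wild-type sample 2 and 95.8 CPM for border macrophages in wild-type sample 1. Of these lists, 1 of 6 monocyte, 1 of 7 border macrophage and 0 of 9 neutrophil markers averaged 1 CPM or more. The part of such cells in the result was not tested. A gene with 100 reads or more in 1 library and at most 3 in each other was not rare. There were 205 such genes for knockout sample 3 and 53 to 136 for each remaining library. Il1b is 1 of those 205.

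Il18, the gene of interleukin-18, was at 56.6, 84.7 and 62.1 CPM in the wild-type libraries and 51.6, 71.0 and 57.5 CPM in the knockout libraries. Sample 2 was highest in both genotypes and the groups overlapped. The estimate was -0.18 ± 0.60 (SE) in log2 units, so a change of Il18 in either direction could not be resolved at this depth and spread.

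The receptor genes had 2849 reads or more in every library. Tnfrsf1a was at 308, 215 and 229 CPM in the wild-type libraries and 249, 215 and 250.3 CPM in the knockout libraries. Wild-type sample 1 was highest, and the knockout samples lay within the wild-type range but for knockout sample 2, at its lower edge. The fitted difference was -0.07 ± 0.29 on the log2 scale (SE). Its sign turned in 6 of 19 alternatives.

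Tnfrsf1b was at 254, 425 and 457 CPM in the wild-type libraries and 494, 541 and 401 CPM in the knockout libraries. Wild-type sample 1 stood lowest, and knockout sample 3 fell below wild-type samples 2 and 3. On the log2 scale the fit gave 0.34 ± 0.29 (SE), knockout over wild type, positive in all 19 alternatives at 0.13 to 0.55. Leaving out wild-type sample 1 gave the lowest of these values. Within a library, Tnfrsf1b reads were 1.60 to 2.52 times those of Tnfrsf1a in 5 libraries and 0.826 times in wild-type sample 1, a ratio of reads not corrected for length.

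Il10ra, which encodes the ligand-binding chain of the IL-10 receptor, had the most reads of the 10 genes in every library. It was at 961, 1267 and 808 CPM in the wild-type libraries and 811, 746 and 761 CPM in the knockout libraries. Wild-type samples 1 and 2 lay above all knockout samples, but wild-type sample 3 fell just under knockout sample 1. The estimate was -0.39 ± 0.21 (SE) in log2 units. It was negative in all 19 alternatives and moved to -0.17 without wild-type sample 2. The 3 knockout values lay within 1.09-fold of each other.

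Il6ra, the ligand-binding chain of the IL-6 receptor, was at 251, 138 and 216 CPM in the wild-type libraries and 185, 219 and 191 CPM in the knockout libraries. All knockout samples lay inside the wild-type range. The fitted difference was -0.02 ± 0.34 on the log2 scale (SE) and turned sign in 12 of 19 alternatives.

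Socs3 and Icam1 were the members with higher values in every knockout sample. Socs3, the STAT3-induced brake on cytokine receptors (ENSMUSG00000053113.3, chromosome 11, 117966079 to 117970047, minus strand), was at 76.3, 59.7 and 113 CPM in the wild-type libraries and 319, 207 and 160 CPM in the knockout libraries. The lowest knockout sample was thus above the highest wild-type sample. The means were 82.8 ± 27.0 and 228 ± 82.1 CPM (SD, n = 3 each), 2.76-fold higher in knockout. On the log2 scale the fit gave 1.46 ± 0.44 (SE), knockout over wild type, and 1.14 to 1.76 over the 19 alternatives. The lowest of these came from leaving out knockout sample 1.

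Icam1 (ENSMUSG00000037405.8, chromosome 9, 21015985 to 21028817, plus strand) was at 226, 180.2 and 194 CPM in the wild-type libraries and 348, 263 and 338 CPM in the knockout libraries. Both groups were tight and did not overlap. The means were 199.9 ± 23.3 and 316 ± 46.6 CPM (SD, n = 3 each), 1.58-fold higher in knockout. The estimate was 0.66 ± 0.28 (SE) in log2 units, and 0.40 to 0.80 over the 19 alternatives, the lowest with the level of Xist, an RNA of female cells, as a covariate. The sex of the mice is not in the labels, and only knockout samples 1 and 3 held more than 1.41 CPM of Xist. Endothelial cells also carry ICAM1, and 8 endothelial markers summed to 180, 28.5 and 52.3 CPM in wild type against 27.3, 61.7 and 40.6 CPM in knockout, with Cldn5 and Ly6c1 at 0 reads in all 6 libraries. Of the 8 markers, 2 averaged 1 CPM or more. Wild-type sample 1 had the most endothelial reads. Their part in the Icam1 values was not tested. The antisense gene model Gm47079 shares 511 bases of exon with Icam1, which is 11.7% of its exon length, and its reads cannot be told apart.

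The 250 bases before the Icam1 start are shown because Icam1 is a target of both pathways that the other genes feed. The NF-kB-like motif used (GGAAANNCC) was chosen after the windows had been read, and this was the 1 window of 9 to hold it. Other forms of NF-kB site were not searched, so their absence from the other windows is not shown. Capitals mark GGAAANNCC and a STAT motif (TTCNNNGAA), both read on both strands, in chr9:21015690-21015939 of GRCm38.p6, plus strand, from RefSeq.
Icam1: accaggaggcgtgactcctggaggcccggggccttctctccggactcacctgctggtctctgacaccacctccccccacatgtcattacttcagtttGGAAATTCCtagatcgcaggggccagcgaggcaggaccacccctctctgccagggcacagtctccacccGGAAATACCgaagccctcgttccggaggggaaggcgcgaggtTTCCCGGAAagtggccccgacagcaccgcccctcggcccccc
The NF-kB-like motif occurs at 145 to 153 and at 76 to 84 bases before the start, and the STAT motif at 34 to 42 bases, with no overlap between them. Of all annotated windows 4.93% hold GGAAANNCC and 7.02% hold TTCNNNGAA. The STAT motif was also found before Socs3 (TTCTTAGAA), Tnfrsf1a (TTCCGTGAA) and Tnfrsf1b (TTCCCGGAA). LYL1 is a basic helix-loop-helix protein, a class that binds E-boxes (CANNTG), and 7 of 9 windows hold this short motif, as do 66.2% of all windows. Socs3 and Tnfrsf1a are the windows without it. The Socs3 window is not printed, since 77 of its bases lie in an annotated exon.

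Immediate-early genes, which tissue dissociation also induces, varied in part alongside these genes. Over a list of 20 such genes, the median log2 difference from the wild-type mean was 0.66, 0.62 and -0.24 for the knockout libraries, against -0.07, -0.17 and -0.03 for those of wild type. Of the 19 genes of this list that were tested, 5 were higher and 1 lower at an unadjusted p under 0.05, against 1.16% and 1.67% of all tested genes, and none passed the adjusted threshold. Fos, Jun, Junb, Egr1 and Klf6 were the 5, and Egr2 the 1. Over the 6 libraries, the list's median went with log2(CPM + 1) of Tnf at Pearson r = -0.81, of Socs3 at r = 0.78 and of Icam1 at r = 0.44. Tnfrsf1b, at r = 0.58, and Il10ra, at r = -0.46, went with it more closely than Icam1. The other tested members lay between -0.22 and 0.33. These r describe points that share library and depth. Socs3 was highest and Tnf lowest in knockout samples 1 and 2, where the list was highest. In knockout sample 3, where the list was lowest of all 6, Tnf, Socs3 and Icam1 still lay outside the wild-type range. Without knockout sample 1 the log2 fold change of Socs3 was 1.14. The part of dissociation in these values was not tested. Erythroid genes followed a like order, with a summed level of 227, 65.2 and 0.243 CPM in knockout samples 1 to 3 and 1.23 CPM or less in wild type.

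**Figure D2:**
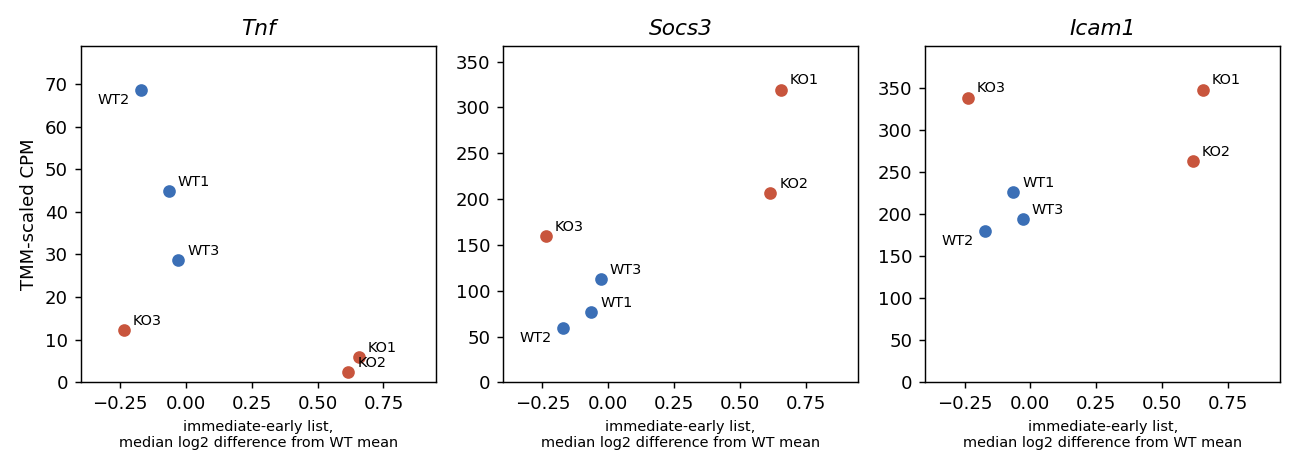
CPM of Tnf, Socs3 and Icam1 (vertical axes, from 0) against the median log2 difference of 20 immediate-early genes from their wild-type mean, with 1 point a library (WT wild type, KO knockout). Knockout sample 3 lies at the left with the wild-type samples, with its Tnf level below theirs and its Socs3 and Icam1 levels above theirs.

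Levels of different genes can be compared only per length, so CPM were divided by the kilobases of annotated exon. On this scale Il10ra was highest in wild type, at 289 ± 66.8 CPM per kb (SD, n = 3), and its lowest wild-type sample was above every wild-type sample of Il1a. Il1a, Tnfrsf1b and Tnfrsf1a followed at 116 ± 54.5, 99.1 ± 28.5 and 96.7 ± 19.3 CPM per kb, with overlapping samples. Il18 came next at 65.8 ± 14.5 and Icam1 at 45.8 ± 5.35 CPM per kb. All Il18 samples lay below those of Tnfrsf1a, but its highest, at 82.2, was above the lowest of Tnfrsf1b and Il1a, at 66.6 and 72.3 CPM per kb. All Icam1 samples lay below those of Il18. Tnf, Socs3 and Il6ra at 28.9 ± 12.2, 28.6 ± 9.34 and 23.4 ± 6.71 CPM per kb overlapped each other, and Tnf also overlapped Icam1. Il1b was last.

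In knockout the order of Il10ra, Il1a, Tnfrsf1b and Tnfrsf1a on this scale was the same, at 221 ± 9.68, 133 ± 42.8, 125 ± 18.7 and 91.9 ± 7.82 CPM per kb (SD, n = 3). Socs3 stood at 79.0 ± 28.4 CPM per kb. Its samples, at 55.2 to 110, overlapped those of Il1a, Tnfrsf1b, Tnfrsf1a, Icam1 and Il18. Tnf stood at 4.18 ± 3.05 CPM per kb, below every sample of Il6ra. Il1a exceeded Tnf in reads by 2.08 to 7.78 times in wild-type libraries and by 19.1 to 81.9 times in knockout libraries, again with no correction for length.

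**Figure D3:**
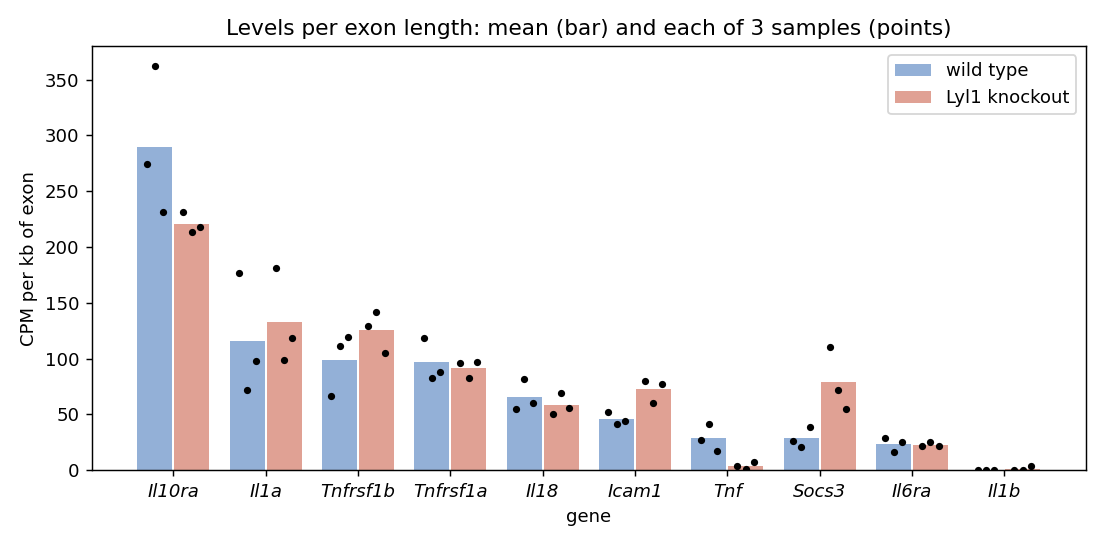
CPM per kb of annotated exon for the 10 genes, ordered by the wild-type mean; bars are means of 3 samples and points the samples. Il10ra is highest in both genotypes at 289 and 221 CPM per kb, and Il1b is near 0 in all but 1 knockout library.

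**Figure D4:**
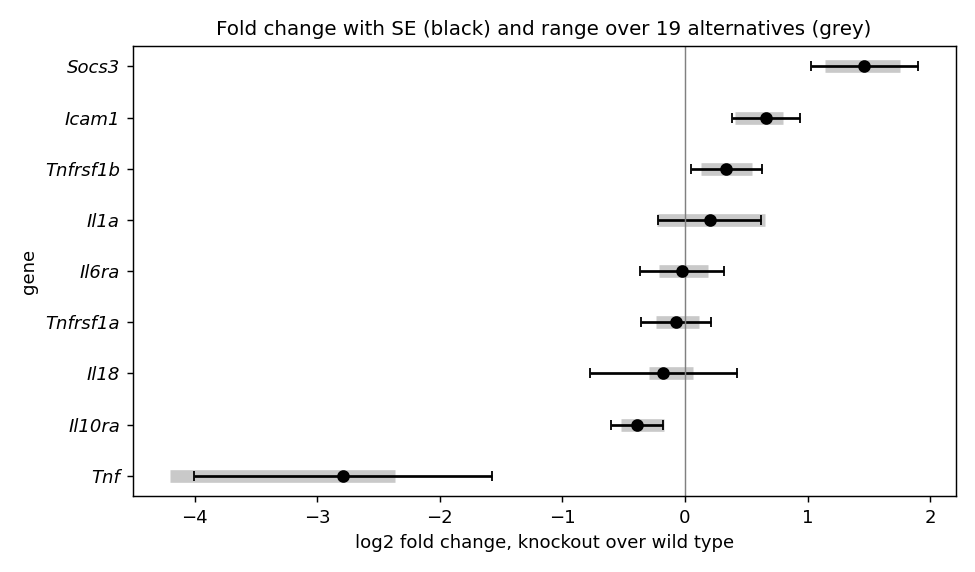
Log2 fold change of the 9 genes that passed the filter, knockout over wild type, the black bar being its standard error in the edgeR fit and the range over 19 alternative settings in grey. Socs3, Icam1 and Tnfrsf1b stay above 0 and Il10ra and Tnf below 0 in all of them, while the ranges of Il1a, Il6ra, Tnfrsf1a and Il18 cross 0.

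The partners of these genes were followed in 9 lists of 180 genes in all, of which 116 could be tested. None passed the adjusted threshold (edgeR, adjusted p = 0.9999 for each tested gene named below). At an unadjusted p under 0.05, 3 were higher and 0 lower in knockout, against 1.16% higher and 1.67% lower of all tested genes. The 3 became 12 of 120 without wild-type sample 3, 5 of 125 without wild-type sample 1 and 1 of 121 without knockout sample 1. Over all tested genes, those same settings gave 860 of 11061, 173 of 11648 and 177 of 11456 higher. The groups did not overlap for 12 higher genes, 10.3% of the 116, and 1 lower gene, 0.862%, against 5.97% and 5.19% of all tested genes. The median log2 fold change was 0.07 over the 116 genes and -0.03 over all tested genes. The latter also moved with the setting, to 0.20 with limma-voom, 0.18 with depth and -0.27 with Xist as a covariate. It was 0.09 with upper-quartile scaling, 0.07 with library size only and -0.08 to 0.10 with 1 sample left out.

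Genes of the TNF signalling list leaned to higher values, 18 of 23 with a median of 0.60 where 48.7% of all tested genes were higher. None of the 23 reached an unadjusted p under 0.05. Wild-type sample 1 stood apart here. Ripk1, Birc3, Map3k7, Tab1, Fadd and Tnip1, 26.1% of the 23, had 10 reads or fewer in it and 100 or more in both other wild-type libraries, against 9.98% of all tested genes. Without that sample 17 of 24 tested genes were higher, with a median of 0.40. The median was 1.13 without wild-type sample 3 and 0.32 with Xist as a covariate, where all tested genes had medians of 0.01 and -0.27. Tnfaip3, which encodes the ubiquitin-editing brake A20, had 20, 1 and 553 reads across the wild-type libraries against 3436, 1467 and 1899 across the knockout libraries. It was the 1 gene of the 23 whose groups did not overlap. The death protease gene Casp8 was at 183 ± 76.7 and 315 ± 64.4 CPM, and Tradd, the adaptor of TNFR1, lay the other way at 82.5 ± 58.6 and 21.9 ± 7.65 CPM (SD, n = 3 each). Adam17, the protease that sheds TNF from the membrane, overlapped widely at 137 ± 106 and 194 ± 72.5 CPM.

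Other TNF family members were mostly scarce, with 13 of 33 tested, 3 higher and 10 lower (median log2 fold change -0.13). The balance turned to 9 higher and 6 lower (median 0.25) without wild-type sample 1, and to 7 and 6 with upper-quartile scaling, library size only or depth as a covariate. Tnfrsf21, the gene of death receptor 6, was at 166, 179 and 317 CPM in the wild-type libraries and 417, 472 and 425 CPM in the knockout libraries, and was 1 of the 3 partner genes at an unadjusted p under 0.05. Its groups did not overlap. Tnfrsf17, the receptor BCMA, was at 69.3 ± 59.0 and 21.5 ± 8.14 CPM (SD, n = 3 each), with overlap. Tnfsf10, the gene of the death ligand TRAIL, had 8, 1068 and 82 reads across the wild-type libraries against 1, 1 and 240 across the knockout libraries. Tnfrsf13b, a receptor for BAFF and APRIL, overlapped at 243 ± 86.8 and 252 ± 36.1 CPM. Lta, the gene of lymphotoxin alpha, a further ligand of both TNF receptors, had 0 reads in all 6 libraries.

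Of the IL-1 and IL-18 list 13 of 23 genes were tested, 6 higher and 7 lower, with a median of 0.00 that lay between -0.15 and 0.23 over the alternatives. The inflammasome adaptor Pycard was at 213 ± 43.0 and 223 ± 13.2 CPM, the protease Casp1 at 108 ± 30.1 and 83.5 ± 9.87 CPM and the ATP-gated channel P2rx7 at 261 ± 85.0 and 227 ± 93.5 CPM. Nlrp3, the sensor, had 5, 500 and 551 reads across the wild-type libraries against 1396, 609 and 1459 across the knockout libraries, with no overlap. On the receiving side, Irak2, a kinase gene of the pathway, was at 102 ± 48.9 and 143 ± 56.7 CPM. The adaptor gene Myd88 was at 166 ± 75.3 and 129 ± 46.9 CPM and the kinase gene Irak1 at 103 ± 16.1 and 103 ± 30.4 CPM, all 3 with overlap. The receptor genes had few reads. The IL-1 receptor gene Il1r1 had 2, 0 and 18 reads across the wild-type libraries against 0, 0 and 1 across the knockout libraries, and Il18r1, Il1r2 and the antagonist gene Il1rn had 0 in all 6. Sigirr, an inhibitory receptor of the family, was the exception, with 1329 reads in wild-type sample 2, 266 in knockout sample 3 and at most 2 in each of the others. Myd88, Irak1, Sigirr and these genes near 0, and those named so in the other lists, were chosen after their values were seen.

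For IL-6 and IL-10, 11 of 22 tested genes were higher and 11 lower (median 0.04). These became 18 and 6 (median 0.62) without wild-type sample 1, and 9 and 13 (median -0.21) without knockout sample 3. They were 16 and 6 (median 1.02) with limma-voom and 7 and 15 (median -0.38) with Xist as a covariate. All tested genes had medians of 0.20 with limma-voom and -0.27 with Xist as a covariate. Il10 itself had 0 reads in every library, although Il10ra led the levels. Il10rb, the shared second chain, was at 493, 351 and 336 CPM in the wild-type libraries and 287, 146 and 272 CPM in the knockout libraries, the 1 partner gene whose knockout samples all lay below wild type. It shares 569 bases of exon with the gene model Gm21970 on the same strand. Il6 had 2, 1001 and 504 reads across the wild-type libraries against 0, 0 and 16 across the knockout libraries. Wild-type sample 1 thus lay with the knockout samples, and the groups overlapped.

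Stat3, the transducer of both receptors, was at 25.9, 32.5 and 142 CPM in the wild-type libraries and 256, 141 and 229.9 CPM in the knockout libraries. Knockout sample 2 fell just below wild-type sample 3, so the groups overlapped. Jak3, a kinase of gamma-chain receptors, was at 34.5 ± 30.1 and 120 ± 39.4 CPM, with no overlap, and shares exon sequence with Insl3. Ptpn6, the phosphatase SHP-1, was even at 737 ± 113 and 656 ± 27.1 CPM (SD, n = 3 each). Of the relatives of Socs3, Socs1 had 3, 0 and 50 reads across the wild-type libraries against 0, 1 and 340 across the knockout libraries, and Cish had at most 1 read a library.

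Among other cytokine receptors 12 of 16 were higher in knockout, with a median of 0.39 (0.23 without knockout sample 1). The groups did not overlap for 4, all higher, which is 25% of the 16 against 5.97% of all tested genes. Il17ra was at 157, 184 and 126 CPM in the wild-type libraries and 275, 298 and 227 CPM in the knockout libraries and was at an unadjusted p under 0.05. Ifngr2 was at 292 ± 11.1 and 426 ± 84.7 CPM and Il21r at 146 ± 89.7 and 254 ± 10.1 CPM, both without overlap. The abundant receptor genes Ifngr1, at 1686 ± 359 and 1708 ± 248 CPM, and Tgfbr1, at 815 ± 190 and 732 ± 199 CPM, overlapped.

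Of other cytokine genes 7 of 21 were tested, 1 higher and 6 lower (median -0.62, or -0.26 without knockout sample 1 and -0.30 without wild-type sample 2), all with overlap. Tgfb1 was at 214 ± 77.6 and 120 ± 28.8 CPM, Il16 at 278 ± 88.0 and 191 ± 96.2 CPM and Il15 at 47.3 ± 42.1 and 23.6 ± 10.7 CPM (SD, n = 3 each).

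Of the relatives of Icam1 and the integrins that bind it, 5 of 11 were tested, 3 higher and 2 lower. Itgam, the alpha chain of the Mac-1 integrin that binds ICAM1, was at 621, 697 and 735 CPM in the wild-type libraries and 1007, 872 and 998 CPM in the knockout libraries. Its groups did not overlap, and it was at an unadjusted p under 0.05. Gm49368 on the same strand shares 68.7% of its exon length. Itgal, the alpha chain of the other main ICAM1 receptor, had 1 read in all 6 libraries together. Itgax and Vcam1 had uneven values, with Itgax at 119, 0 and 24.9 CPM in the wild-type libraries and 0, 0.0508 and 6.64 CPM in the knockout libraries. The ligand gene Selplg was even at 7888 ± 894 and 7550 ± 198 CPM.

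Genes that control the decay of cytokine mRNA were all tested, 6 higher and 5 lower of 11 (median 0.32). The median was 0.02 without wild-type sample 1, -0.18 without knockout sample 1 and -0.16 with Xist as a covariate. All tested genes had medians of 0.07, -0.06 and -0.27 in these settings. Zfp36 encodes tristetraprolin, which binds AU-rich elements in Tnf mRNA and speeds its decay. It was at 1259, 1211 and 1303 CPM in the wild-type libraries and 1756, 1749 and 1313 CPM in the knockout libraries. The groups did not overlap, but knockout sample 3 was almost level with wild-type sample 3. Its relative Zfp36l1 was at 59.5 ± 6.86 and 98.6 ± 5.74 CPM, also without overlap, and 55.9% of its exon length is shared with the antisense model Gm26669. Elavl1, which encodes a stabilising factor, was at 168 ± 56.8 and 126 ± 24.4 CPM. NF-kB feedback genes were split 3 to 3, or 5 to 1 with upper-quartile scaling, with library size only and without wild-type sample 2. Nfkbia, the gene of the inhibitor IkB-alpha, was at 197 ± 28.3 and 208 ± 35.4 CPM, with overlap. Nfkbiz, the gene of IkB-zeta, had 322, 2433 and 517 reads in wild type against 2246, 871 and 1440 in knockout, also with overlap. Nfkbid had 11, 40 and 282 reads against 644, 818 and 817, with no overlap. Bcl3, an IkB relative, had 204, 530 and 70 reads against 386, 1 and 66, with overlap.

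**Figure D5:**
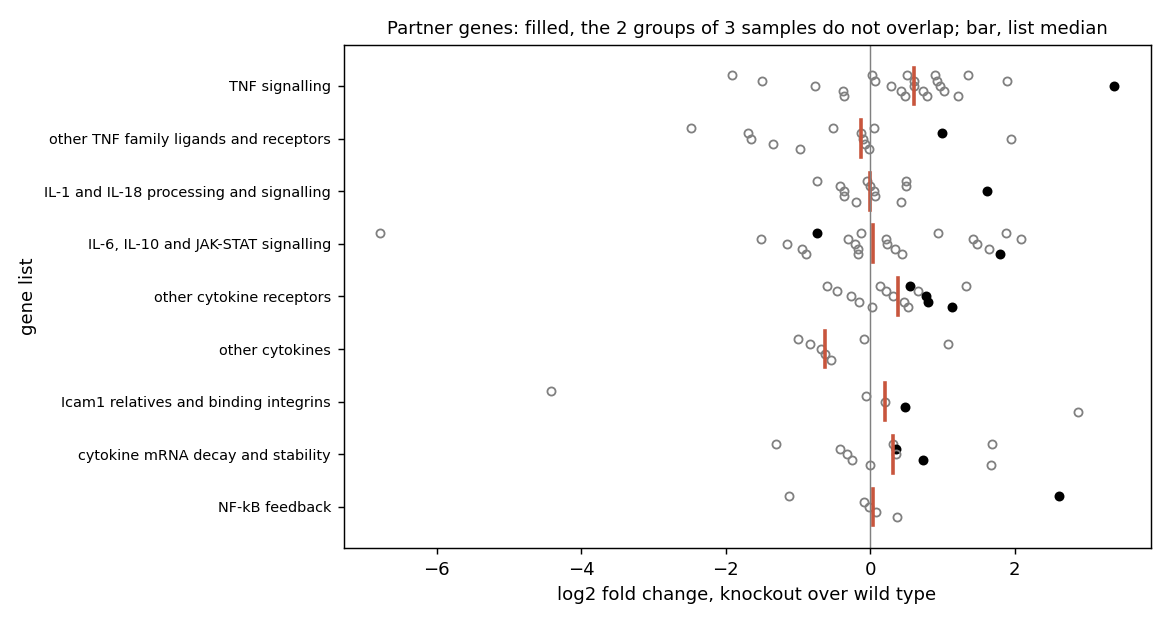
Log2 fold change, knockout over wild type, of the 116 tested partner genes in 9 lists, with filled points where the 3 knockout and 3 wild-type samples do not overlap and a bar at each list's median. Medians run from -0.62 for other cytokines to 0.60 for TNF signalling, and 13 points are filled.

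Genes with a mean of 50 CPM or more over the 6 libraries were compared by Pearson r of log2(CPM + 1). Those with the pattern most like that of Tnf were Atp8a1 (r = 0.996), Edf1 (r = 0.990) and Ptpn18 (r = 0.986) of 3594. For Socs3 they were Trappc13 (r = 0.972), Junb (r = 0.961) and Ccdc59 (r = 0.956), and for Icam1 Ccr6 (r = 0.954), Whrn (r = 0.949) and Cyth4 (r = 0.915). Ccr6 was at 0.441, 0.0795 and 0 CPM in the wild-type libraries and 209, 47.6 and 112 CPM in the knockout libraries. Ccr6, Trappc13 and Ccdc59 had 50 CPM or more only in knockout samples, so their likeness in part restates the difference between genotypes. With so few libraries in 2 genotypes and 3594 genes, r of this size describes a likeness only. The points share library and depth. None were named for Il1b, which was not tested.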

How the data were processed

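The authors deposited raw counts of reads per gene symbol for 6 libraries, made from sorted cells with a SMARTer Ultra Low kit and Nextera XT and read as single reads, per the labels' protocols. The submitters' processing notes name STAR 2.5.2b, featureCounts 1.5.1 and the build GRCm38, while the sources used here give no annotation or strand setting. PCR copies are counted as reads, so floors cover counting error only. Of 48587 genes (92 spike-in entries left out, with 21 to 66 reads a library), 10394 passed filterByExpr in edgeR 4.0.16 (R 4.3.3) with a minimum count of 10 and minimum total of 15. Libraries were scaled by TMM. Knockout was set against wild type with edgeR's quasi-likelihood F test on genotype alone, 2-sided, Benjamini-Hochberg adjusted over all tested genes, threshold 0.05. It was also run on simulated counts, the outcome of which is not given here, so no power is claimed for it. Positions, exon lengths and exon overlaps come from GENCODE M21 (GRCm38), and promoter windows from RefSeq (GRCm38.p6), where 9 of 10 members matched and the 250 bases before the start were used. Members and lists were chosen with earlier results of these data known, and the motifs after the windows had been read. All members were named, and of each partner list the 3 genes with the smallest p and 2 with the highest level. Alternatives used limma 3.58.1 and DESeq2 1.42.0, other scalings, filters and covariates, a replicate block, and each sample left out.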

Additional observations from a re-analysis of the deposited data

How the results depend on the processing

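Of 171 log2 fold changes of the 9 members over 19 alternatives, 169 moved by less than the spread between replicates and 23 changed sign, all in Il1a, Il18, Tnfrsf1a and Il6ra. The exceptions came from the fit with Xist as a covariate, where Tnf was at -4.20 and Icam1 at 0.40. Knockout samples 1 and 3 held 349 and 412 CPM of Xist, which female cells express, the other 4 libraries 1.41 CPM or less. The cause was not tested. Leaving out 1 sample each gave -3.51 to -2.37 for Tnf.

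Genes called over the whole table numbered 0 higher and 0 lower. They were 3 and 5 with no filter, 34 and 18 with DESeq2 on the genes edgeR tested, and 97 and 40 with DESeq2 on all genes with a read, which left 8889 adjusted p undefined. No member was called in any setting. Partner genes at an unadjusted p under 0.05, 3 higher and 0 lower, numbered 5 higher with upper-quartile scaling, with library size only and with edgeR's newer dispersions, the last with 3 lower. Over all tested genes these settings gave 133, 139 and 355 higher, in that order, and the last gave 349 lower. No filter gave 13 and 4 of 151 partner genes, and 895 and 768 of all 22005. DESeq2 on the genes edgeR tested gave 6 and 4 of 116, and 250 and 376 of all 10394. With limma-voom the numbers were 8 and 1 of 116, and 476 and 187 of all 10394. DESeq2 on all genes with a read gave 3 lower of 151, and 405 of all 22005. Depth as a covariate gave 1 lower of 116, and 158 of all 10394. Xist as a covariate gave 2 lower of 116, and 286 of all 10394. Leaving out 1 sample each gave 1 to 12 higher, the highest without wild-type sample 3 and the lowest without knockout sample 1, and 0 to 2 lower. Over all tested genes, leaving out 1 sample each gave 93 to 298 lower. The number higher over all tested genes was also highest without wild-type sample 3, at 860. The cause was not tested.

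The labels do not say whether the replicate numbers pair the samples. Deviations of same-numbered samples correlated at 0.014, -0.0029 and 0.033 across genes. With 3 samples a group and this spread, that cannot exclude a shared litter or day. With the replicate number as a block, the log2 fold changes were -2.99 for Tnf, 1.46 for Socs3 and 0.66 for Icam1, the partner genes numbered 3 higher and 0 lower, and 0 genes were called. Scaling by spike-ins was not run, since the libraries held 66 such reads or fewer. The lists of partner genes were recomputed under every setting, a step chosen after seeing the data.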
